A study of Mus musculus with 119 samples.

Results

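Elk1, Elk3, Elk4 and Srf were followed through every library of the series: the first 3 encode the ternary complex factors (TCFs), and Srf encodes their partner, serum response factor. They were taken by gene symbol from the deposited RNA-seq table, which lists 18098 genes in 119 libraries of mouse bone marrow-derived macrophages (BMDMs). All 4 were found and all 4 passed the filter on low values, which left 11884 genes in the fit of 3 genotypes and 11971 in the fit of all libraries. All cells were of strain C57BL/6(NIMR), were grown in L-cell conditioned medium and, where stimulated, received LPS at 100 ng/ml. The question was how far TCF and Srf transcripts themselves depended on LPS, on the TPL-2 – ERK1/2 pathway and on Elk1 and Elk4, and whether Elk3 was higher where the other TCFs were missing.

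The 25 groups came from 5 experiments named in the labels. The first held WT cells (22 libraries) and Map3k8[D270A] cells (24 libraries), whose TPL-2 kinase carries a point mutation that makes it inactive; both were sampled without LPS and after 0.5, 1 and 2 h of LPS. The second held Elk1-/-Elk4-/- cells (16 libraries) over the same times, and the third held Nfkb1[SS/AA] cells (18 libraries) at 0, 0.5 and 1 h, in which a mutated p105 cannot be degraded on stimulation and TPL-2 is not released from it. The fourth held WT cells treated with PD0325901 at 0.1 µM (21 libraries), an inhibitor of the kinases MKK1 and MKK2, with LPS for 0.5 or 1 h after 10 min of the inhibitor or with the inhibitor alone for 10, 40 or 70 min, together with 3 libraries of cells given DMSO, the solvent. The fifth held WT cells treated with the RSK inhibitor RSKi47 at 2 µM (15 libraries), 10 min before LPS for 0.5, 1 or 2 h or without LPS. Ages were not given, and neither was the stretch of Elk1 or Elk4 that had been deleted.

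TCFs are ETS-family DNA-binding proteins that join a dimer of SRF on serum response elements, where SRF reads the CArG box and the TCF reads a neighbouring ETS motif. Phosphorylation of the TCF by ERK1/2 turns on immediate early genes such as Egr1 and Fos. Elk1 and Elk4 act largely in place of one another, and Elk3, the other TCF, can also repress. SRF also works with the myocardin-related factors (MRTFs) on genes of the actin cytoskeleton, and Srf is itself known as an SRF target.

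Values are the deposited normalised values on a log2 scale, on which a difference of 1 is a 2-fold difference. Levels of different genes were not compared with each other, since the table is not per length. The read depth behind each library is unknown, because the table holds no counts. In bulk samples, fewer cells of a type and less RNA per cell cannot be told apart. The study's methods call the libraries biological replicates. Neither they nor the labels say which came from separate mice, so the p-values measure only the spread between these libraries. WT and Map3k8[D270A] cells belonged to 1 experiment. For every other genotype or inhibitor the comparison with WT was also a comparison between experiments, and these cannot be told apart.

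The macrophage identity of the cells was checked with 7 listed markers found in the table, all of them high in these libraries, with a summed level between 18.29 and 19.13. Of the 6 neutrophil markers, S100a8 (mean 7.99 against 4.97) and S100a9 (9.14 against 5.24) were higher in Elk1-/-Elk4-/- than in WT libraries, and the summed level of the 6 was 9.30 to 10.29 against 5.74 to 7.23. Camp (4.44 against 2.23), Mpo (1.78 against 0.73), Elane (0.35 against -0.13) and Ly6g (0.21 against -0.23) were also higher, at lower levels, so the means of all 6 were higher in the deleted cells. Of 4 fibroblast markers, Col1a1 had a mean of 4.55 and Col1a2 of 5.05 in RSKi47 libraries, with highest libraries of 9.03 and 7.28. The summed level was 4.94 to 9.41 against 3.69 to 4.78 in WT, while Dcn (-0.87) and Pdgfra (-0.53) were at the floor. The part of these genes in the results below was not tested.

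The promoter windows of Srf, Elk4 and Elk3 are shown because the Srf window holds CArG boxes and the ETS motif CCGGAA, the Elk4 window holds CCGGAA alone, and that of Elk3, the TCF that remained in the deleted cells, holds neither of these. Each is the 250 bases before a transcription start listed by RefSeq on build GRCm38.p6, 5′ to 3′ on the strand of the gene. They lie at chr17:46556163-46556412 on the minus strand for Srf, chr1:132007370-132007619 on the plus strand for the first of 3 listed starts of Elk4, and chr10:93311160-93311409 on the minus strand for Elk3. Capitals mark CArG boxes and the ETS motif CCGGAA, both searched on both strands.
Srf: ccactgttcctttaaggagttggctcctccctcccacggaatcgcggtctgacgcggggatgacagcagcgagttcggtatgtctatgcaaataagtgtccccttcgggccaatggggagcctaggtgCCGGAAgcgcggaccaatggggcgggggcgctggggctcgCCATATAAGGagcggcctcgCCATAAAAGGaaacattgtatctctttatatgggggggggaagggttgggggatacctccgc
Elk4: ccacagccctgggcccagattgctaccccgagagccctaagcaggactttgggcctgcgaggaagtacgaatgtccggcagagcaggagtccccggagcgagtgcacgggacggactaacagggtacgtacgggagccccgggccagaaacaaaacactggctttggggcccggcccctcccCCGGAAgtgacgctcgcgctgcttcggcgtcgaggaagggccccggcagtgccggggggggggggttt
Elk3: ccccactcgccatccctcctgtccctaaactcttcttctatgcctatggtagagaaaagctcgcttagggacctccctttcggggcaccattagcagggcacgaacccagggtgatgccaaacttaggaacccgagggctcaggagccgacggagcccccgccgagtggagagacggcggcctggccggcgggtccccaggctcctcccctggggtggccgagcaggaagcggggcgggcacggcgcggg

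The Srf window held 2 CArG boxes, CCATATAAGG at 82 and CCATAAAAGG at 62 bases before the start, and 1 CCGGAA at 122 bases, with no overlap between the motifs. A CArG box was present in 1.47% of 32841 windows of this length, CCGGAA in 12.0% and both in 0.146%. The first Elk4 window held 1 CCGGAA at 68 bases before the start, and the other 2 Elk4 windows held neither motif. The Elk3 window and the Elk1 window (chrX:20950609-20950858, minus strand) held neither. By RefSeq the genes lie at chr17:46546838-46558267 (Srf), chr1:132007577-132026448 (Elk4), chr10:93247415-93311159 (Elk3) and chrX:20933395-20950608 (Elk1), so the starts used for the Srf window and the 3 Elk4 windows are inside the listed genes. These matches describe the letters of the windows and show no binding.

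The deletion was checked first. Elk1, an X-linked gene, lay between 9.07 and 9.22 in the 6 unstimulated WT libraries (median 9.13) and at 6.22, 6.43, 6.59 and 6.22 in the 4 unstimulated Elk1-/-Elk4-/- libraries. Elk4 lay between 7.57 and 7.80 (median 7.76) in the same WT libraries and at 5.59, 5.88, 5.83 and 5.54 in the deleted cells. Every deleted library was below every WT library for both genes at all 4 times. A call, an adjusted p below 0.05, was common in this comparison: 51.8% of all genes tested were called in unstimulated cells, and 44.4%, 53.4% and 50.8% after 0.5, 1 and 2 h. The differences for Elk1 were -2.78 ± 0.05 (SE) without LPS and -3.00, -3.07 and -2.76 after LPS, and ranked 7, 8, 8 and 13 by size among the 11884 genes. The differences for Elk4 were -2.01 ± 0.08 without LPS and -2.17, -2.28 and -2.47 after LPS. The levels listed in the deleted cells were not read as residual transcript. Genes with values from 5 to 6 had a median replicate SD of 0.16, below the 0.212 that counting error alone would give if the values were log2 counts, and those from 6 to 7 had 0.137 against 0.149. Whether the scale of the table pulls low values together was not tested.

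**Figure D1:**
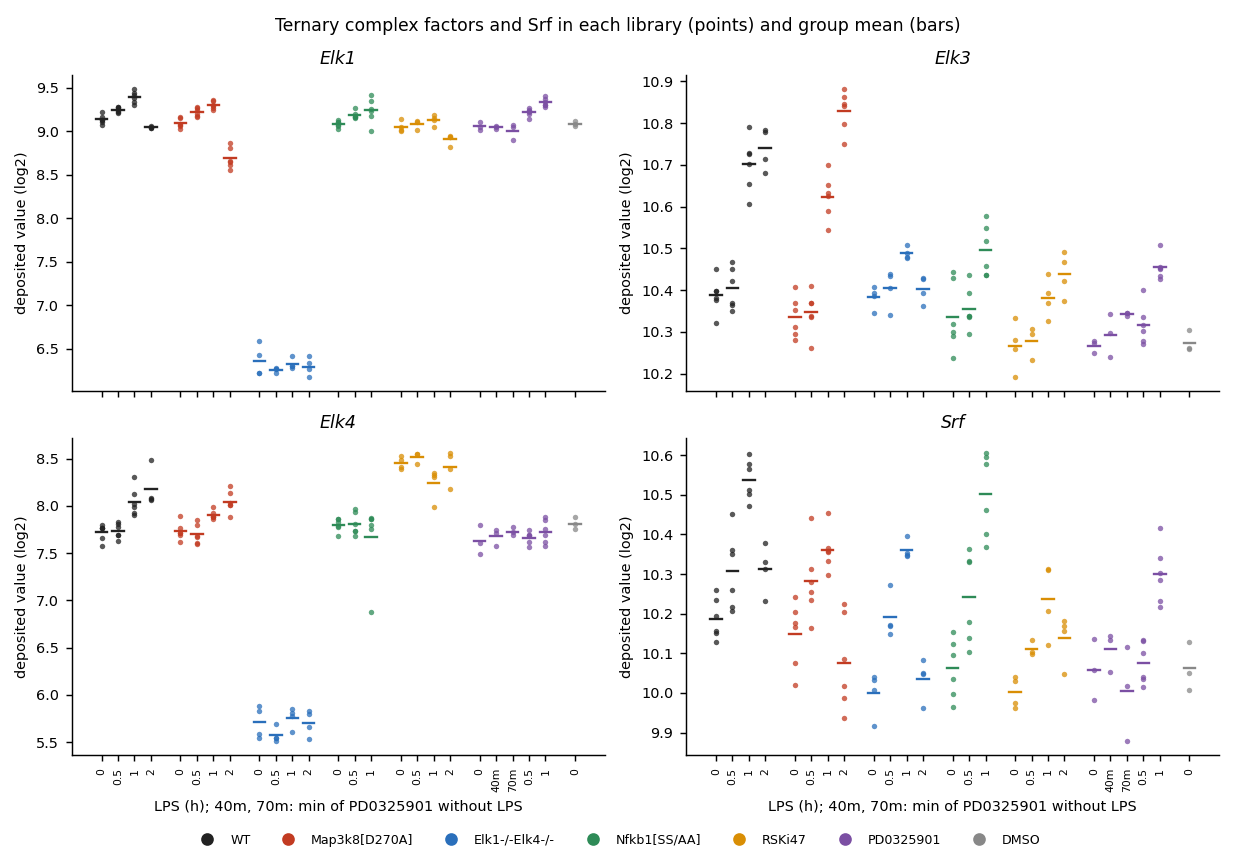
Deposited log2 value of each member (vertical axis) by genotype or treatment and time (horizontal axis), with 1 point per library and a bar at each group mean. Elk1 and Elk4 are lowest in the Elk1-/-Elk4-/- libraries, the single low Elk4 point in Nfkb1[SS/AA] cells at 1 h is replicate 2 (6.88), and Elk3 in Elk1-/-Elk4-/- cells at 1 and 2 h (10.36 to 10.51) lies below the WT points (10.61 to 10.79).

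In WT cells LPS raised all 4 members at 1 h, although Elk4 was not called when WT replicates 7 to 9 were used alone. Elk3 and Elk4 were still raised at 2 h, whereas Elk1 was not called at 2 h and the smaller difference of Srf then did not hold in every fit. Elk3, the ETS factor that can repress, lay between 10.32 and 10.45 (median 10.39) without LPS, between 10.35 and 10.47 (10.40) at 0.5 h and between 10.61 and 10.79 (10.71) at 1 h, and at 10.72, 10.68, 10.78 and 10.78 at 2 h. Libraries of the unstimulated and 0.5 h groups overlapped, and those of 1 and 2 h were all above both. The differences from unstimulated cells were +0.02 at 0.5 h (adjusted p = 0.818), +0.31 ± 0.03 at 1 h (5.34e-14) and +0.35 ± 0.03 at 2 h (1.92e-14). Of all genes tested in WT cells, 11.6% were called at 0.5 h, 46.8% at 1 h and 71.5% at 2 h.

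Elk4 in WT cells lay between 7.90 and 8.31 at 1 h (median 8.0), above the highest unstimulated library at 7.80. At 2 h its values were 8.07, 8.49, 8.09 and 8.07, of which the second stood apart. The differences from unstimulated cells were +0.32 ± 0.07 at 1 h (adjusted p = 4.87e-05) and +0.46 ± 0.07 at 2 h (2.72e-07). Within WT replicates 7 to 9 they were +0.18 (0.0879) and +0.31 (0.0229), the latter with 1 library at 2 h. Elk1 lay between 9.21 and 9.29 at 0.5 h, between 9.30 and 9.49 at 1 h (median 9.40) and at 9.04, 9.07, 9.05 and 9.05 at 2 h. It was higher at 1 h by 0.26 ± 0.04 (2.04e-06) and lower at 2 h than at 1 h, by -0.35 (1.94e-08; 65.3% of genes called). Against unstimulated cells the 2 h difference was -0.09 ± 0.05 (0.101), with no overlap. With the replicate number, which paired the WT libraries, as a block it was -0.10 as a random (0.0316) and -0.11 as a fixed effect (0.0514). The 0.5 h difference of +0.11 did not pass either (0.0987), but did with the fixed block (0.0199).

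Srf lay between 10.13 and 10.26 (median 10.17) in unstimulated WT cells and between 10.47 and 10.60 (10.54) at 1 h, with no overlap. At 2 h its values were 10.23, 10.33, 10.31 and 10.38, of which the first was within the unstimulated range. The change was +0.35 ± 0.04 at 1 h (adjusted p = 5.31e-10) and +0.13 ± 0.05 at 2 h (0.0167), and from 1 to 2 h it was -0.22 (5.36e-05). The 2 h call was lost without WT replicate 5, 6 or 7 (differences of 0.11 to 0.15 over the fits that left out 1 replicate), and under quantile normalization the 2 h difference was -0.04 (0.478). At 0.5 h the difference was +0.12 (0.0559), and 0.00853 with the replicate block. Quantile normalization moved the WT change of Elk3 by -0.12 at 1 h and -0.22 at 2 h and left it called and positive, at 0.20 and 0.13.

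Genes known as targets of the complex had risen at 0.5 h. Of 12 immediate early genes linked to TCFs, 11 were tested and all 11 were higher in WT cells at 0.5 h, beside 7.82% of all genes, with a median difference of 2.59 against -0.00 over all genes tested. Egr1, a zinc-finger transcription factor, was higher by 5.34 (adjusted p = 1.40e-37), Ier2 by 3.33 (3.64e-40), Nr4a1 by 3.19 (6.39e-27) and Fos by 3.15 (3.06e-34). At 2 h 5 of the 11 were higher and 2 lower, and Fos was at -1.55 (1.76e-19). Of the 11 tested MRTF-linked targets 1 was higher at 0.5 h, 5 at 1 h and 6 at 2 h, with none lower, beside 11.6%, 46.8% and 71.5% of all genes called in either direction. At 2 h these included Tpm4, a tropomyosin (+0.84, 3.17e-26), the actin-binding protein gene Tagln (+0.47, 9.87e-06) and the actins Actb (+0.45, 1.02e-07) and Actg1 (+0.38, 1.42e-13).

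**Figure D2:**
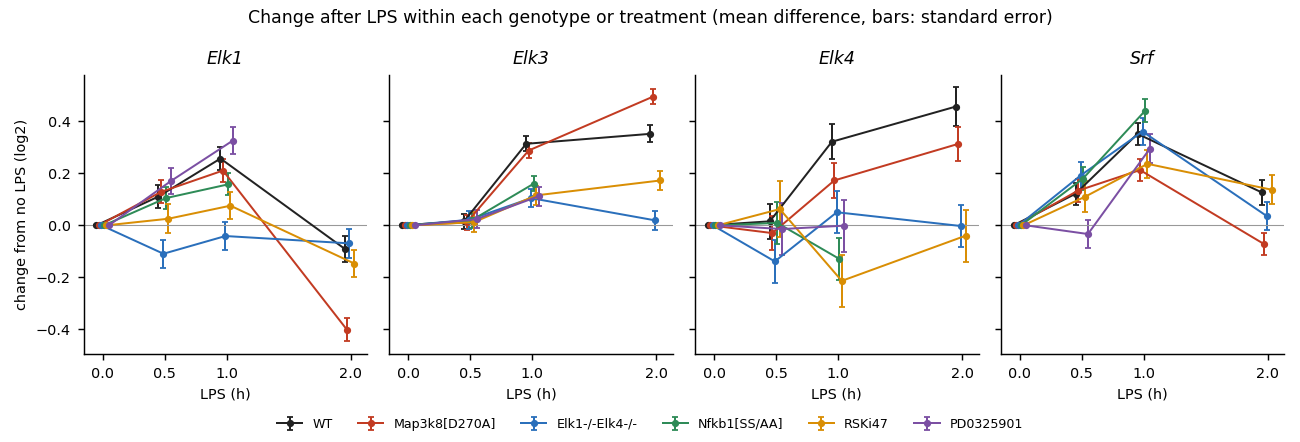
Change of each member from cells without LPS (vertical axis, log2 difference of group means, bars show the standard error) against hours of LPS (horizontal axis), with 1 line per genotype or treatment. Elk3 climbs by 0.35 in WT and 0.49 in Map3k8[D270A] cells at 2 h and by 0.02 in Elk1-/-Elk4-/- cells, whereas Srf peaks at 1 h in WT cells at +0.35; under quantile normalization Srf in WT cells at 2 h and Elk3 in Elk1-/-Elk4-/- cells at 1 and 2 h change sign, as do several differences near 0 that were called in neither scaling, such as Srf in Elk1-/-Elk4-/- cells at 2 h.

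Srf at 1 and 2 h and Elk1 at 2 h were lower in Map3k8[D270A] than in WT cells. Without LPS and at 0.5 h limma called no member (0 also at an unadjusted p below 0.05), where 1.44% and 1.37% of all genes were called. At 1 h Srf lay between 10.30 and 10.45 (median 10.36) in Map3k8[D270A] cells, all below the lowest WT library at 10.47. It was the member called at that time (-0.18 ± 0.04, adjusted p = 0.00335), when 9.79% of all genes were. At an unadjusted p below 0.05 all 4 members were lower at 1 h, beside 2615 of all 11884 genes in either direction, with Elk1 at -0.09, Elk3 at -0.08 and Elk4 at -0.14 (adjusted p of 0.209, 0.0800 and 0.202). At 2 h, when 27.7% were called, Srf lay between 9.94 and 10.23 (median 10.05), again below all WT libraries, with a difference of -0.24 ± 0.05 (0.000112). Elk1 at 2 h lay between 8.55 and 8.87 (median 8.65), below the WT values of 9.04 to 9.07, with a difference of -0.36 ± 0.05 (9.06e-08).

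Elk3 at 2 h lay between 10.75 and 10.88 in Map3k8[D270A] cells and overlapped WT, with a difference of +0.09 ± 0.03 (adjusted p = 0.0282). That call was lost without Map3k8[D270A] replicate 4, 5 or 6 or WT replicate 4 or 5 (differences of 0.07 to 0.11). Elk4 at 2 h differed by -0.13 (0.187), and by -0.031 without WT replicate 5 (0.812). When WT replicates 4 to 6 were set against Map3k8[D270A] replicates 1 to 3, and WT 7 to 9 against Map3k8[D270A] 4 to 6, Srf differed by -0.16 (0.0161) and -0.20 (0.00850) at 1 h and by -0.31 (1.65e-06) and -0.21 (0.0361) at 2 h. Elk1 at 2 h differed by -0.45 (1.19e-06) and -0.26 (0.0871). The second 2 h value of both genes was against 1 WT library, replicate 7, which was assumed to vary like the other groups. The labels do not say that these number ranges were batches.

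Within Map3k8[D270A] cells Elk3 rose with LPS, and Elk1 was below its starting level at 2 h. Elk3 was higher by 0.29 at 1 h (adjusted p = 1.33e-12) and 0.49 at 2 h (3.93e-22), and Elk1 was higher by 0.21 at 1 h (7.99e-05) and lower at 2 h, by -0.40 (1.13e-11), a change of -0.61 from 1 to 2 h (6.53e-18; 61.6% of genes called). Srf was higher by 0.21 at 1 h (4.41e-05), and its 2 h difference was -0.07 (0.133). Quantile normalization gave 0.12 (0.0135) and -0.20 (3.93e-05) for Srf at 1 and 2 h, and 0.20 and 0.29 for Elk3, both called. Elk4 was higher at 2 h by 0.31 (3.87e-05), and its 1 h call (+0.17, 0.0310) was lost without replicate 1, 2 or 3 (0.15 to 0.19). In these cells 5.08% of genes were called at 0.5 h, 41.9% at 1 h and 69.5% at 2 h. The test of the difference between the 2 h responses gave -0.31 for Elk1 (0.000475), +0.14 for Elk3 (0.0163) and -0.20 for Srf (0.0269), with 15.5% of genes called. At 1 h, when 2.02% were called, no member was. The Elk3 value was not called without Map3k8[D270A] replicate 5 or WT replicate 5 (0.12 to 0.16), and the Srf value without Map3k8[D270A] replicate 2 or 5 or WT replicate 5, 6 or 7 (-0.22 to -0.18) or under quantile normalization (-0.16, 0.0847).

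Immediate early genes showed the loss of the kinase sooner. At 0.5 h 10 of the 11 tested were lower in Map3k8[D270A] than in WT cells and none higher, beside 0.892% of all genes lower, with a median of -1.05 against -0.01 over all genes. Egr1 differed by -4.41 (adjusted p = 1.13e-32), Ier2 by -1.68 (3.86e-25) and Fosb, a partner of JUN proteins in AP-1, by -1.47 (2.88e-11). The MRTF-linked targets had 0 of 11 called at 0.5 h (0 also at an unadjusted p below 0.05), 1 lower at 1 h, and 1 higher and 1 lower at 2 h. Of all genes, 1.37%, 9.79% and 27.7% were called at these times, and 11.3% were below the unadjusted threshold at 0.5 h.

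Elk3 was not higher in cells without Elk1 and Elk4. Without LPS it was at 10.39, 10.41, 10.35 and 10.39 in the 4 Elk1-/-Elk4-/- libraries, within the WT range, and at 0.5 h at 10.43, 10.44, 10.34 and 10.41, of which the third was just below the lowest WT library at 10.35 and the others were within the WT range. The differences from WT were -0.00 (95% interval -0.07 to 0.06, adjusted p = 0.925) and 0.00 (-0.06 to 0.07, 0.985). At 1 h the values were 10.48, 10.48, 10.51 and 10.49 and at 2 h 10.36, 10.43, 10.39 and 10.43. At both times every deleted library was below every WT library, and the differences were -0.21 (-0.28 to -0.15, 2.23e-07) and -0.34 (-0.41 to -0.27, 2.37e-11). Under quantile normalization these directions held.

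Elk3 responded less to LPS in these cells than in WT cells. Within Elk1-/-Elk4-/- cells Elk3 changed by +0.02 at 0.5 h (adjusted p = 0.929) and by +0.02 at 2 h (0.647, 95% interval -0.05 to 0.09), where quantile normalization gave -0.17 (2.65e-05). At 1 h it was higher by 0.10 ± 0.04 (0.0163), with all 4 libraries above all 4 unstimulated ones, but that call was lost without replicate 3 or 4 (0.09 to 0.12), and quantile normalization gave -0.01 (0.915). In these cells 4.96% of genes were called at 0.5 h, 33.3% at 1 h and 67.2% at 2 h. The response of Elk3 was smaller than in WT cells by -0.21 at 1 h (0.00548; 1.35% of genes called) and by -0.33 at 2 h (7.16e-07; 16.9%). With WT replicates 7 to 9 alone as control the 1 h value was -0.15 (0.233). Against Map3k8[D270A] cells, from the other experiment as well, Elk3 differed by +0.05 (0.224), +0.06 (0.134), -0.14 (0.000391) and -0.43 (4.97e-16) at 0, 0.5, 1 and 2 h, when 50.4%, 49.4%, 51.6% and 49.6% of genes were called.

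A smaller Elk3 response at 1 h was not particular to the deletion. It was smaller than in WT cells also in Nfkb1[SS/AA] (-0.15, adjusted p = 0.00923, but -0.12 and 0.0899 under quantile normalization), RSKi47 (-0.20, 0.00212) and PD0325901 cells (-0.20, 0.00207), all of other experiments than WT and all set against the same WT libraries, when 6.07%, 5.54% and 3.58% of genes were called. The PD0325901 response was taken from 70 min of PD0325901 alone, with a mean Elk3 of 10.34, beside 10.27 after 10 min of it. The other responses were taken from unstimulated cells or, for RSKi47, from 10 min of inhibitor. In Map3k8[D270A] cells, of the same experiment as WT, the 1 h response was +0.29, beside +0.31 in WT. Set directly against the other arms, in comparisons chosen after these values had been seen, the 1 h response in Elk1-/-Elk4-/- cells differed by -0.06 from Nfkb1[SS/AA] (95% interval -0.15 to 0.04, 0.650; 4.21% of genes called), by -0.01 from PD0325901 (-0.11 to 0.09, 0.990; 2.40%) and by -0.01 from RSKi47 cells (-0.11 to 0.09, 0.989; 2.58%). At 2 h it was below that in RSKi47 cells by -0.15 ± 0.05 (0.0238; 16.8%). The 2 h response in RSKi47 cells was itself below that in WT cells (-0.18, 0.00348), a call lost without RSKi47 replicate 1. So the genotype and the experiment cannot be told apart for Elk3, at 1 h or at 2 h. At 0.5 h no response of a member differed from WT in any arm, when 0.109% (Map3k8[D270A]), 0.0589% (Elk1-/-Elk4-/-), 0.309% (Nfkb1[SS/AA]), 0.0251% (RSKi47) and 1.49% (PD0325901) of genes were called. At an unadjusted p below 0.05 there were 1 member in Elk1-/-Elk4-/- cells (Elk1), beside 4.44% of all genes, and 1 in PD0325901 cells (Srf, -0.15), beside 10.2%.

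Srf was lower in Elk1-/-Elk4-/- than in WT cells, with and without LPS, but its response to LPS was not shown to differ. Without LPS it was at 10.03, 10.01, 10.04 and 9.92, below every WT library, with a difference of -0.19 (adjusted p = 0.000996). At 1 h it was at 10.35, 10.40, 10.35 and 10.35 and at 2 h at 10.05, 10.05, 9.96 and 10.08, below every WT library at each time, with differences of -0.18 (0.00164) and -0.28 (1.71e-05). At 0.5 h it was at 10.27, 10.17, 10.17 and 10.15, overlapping WT, and the difference of -0.12 (0.0426) was not called without Elk1-/-Elk4-/- replicate 2, 3 or 4 or WT replicate 7, 8 or 9 (-0.14 to -0.09).

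Within Elk1-/-Elk4-/- cells Srf was higher after LPS by 0.36 at 1 h (adjusted p = 9.24e-08) and its 2 h difference was +0.04 (0.560), or -0.08 under quantile normalization (0.165). The 0.5 h call (+0.19, 0.0169) was lost without replicate 1, 2 or 4 (0.17 to 0.21). Less the response in WT cells, the 1 h value was +0.01 (95% interval -0.13 to 0.15, 1.00) and the 2 h value was -0.09 (0.437). Against Map3k8[D270A] cells Srf differed by -0.15 without LPS (0.00882), a call lost without Elk1-/-Elk4-/- replicate 4 (-0.17 to -0.12 over the replicates left out), by -0.00 at 1 h (0.996) and by -0.04 at 2 h (0.509).

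**Figure D3:**
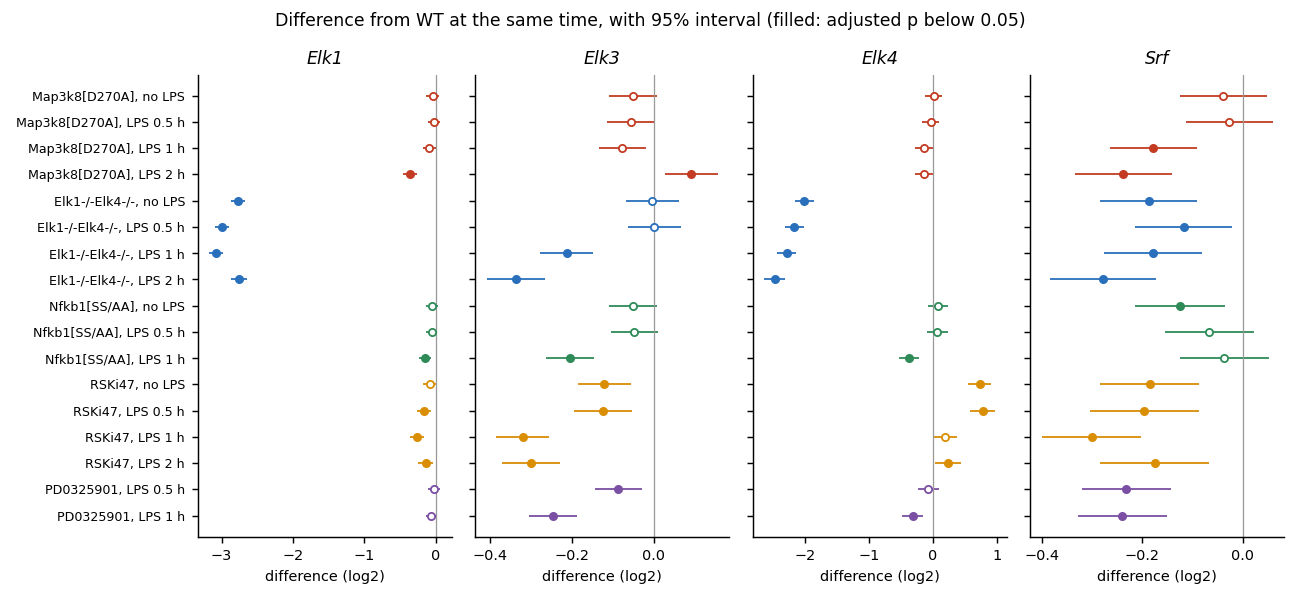
Difference of each member from WT cells at the same time (horizontal axis, log2, bars show the 95% interval) for each genotype or treatment and time (vertical axis), with filled points where the adjusted p was below 0.05. Elk3 in Elk1-/-Elk4-/- cells sits at 0 without LPS and at 0.5 h and at -0.21 and -0.34 at 1 and 2 h, and Elk4 in RSKi47 cells sits at +0.73 and +0.78 without LPS and at 0.5 h.

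The genes around the TCFs gave a mixed picture in Elk1-/-Elk4-/- cells. Immediate early genes were lower in 4, 9, 9 and 6 of the 11 tested without LPS and at 0.5, 1 and 2 h, and higher in 3, 2, 1 and 0, beside the 51.8%, 44.4%, 53.4% and 50.8% of all genes called. At 0.5 h Egr1 differed by -4.45 (adjusted p = 5.06e-31), Fosb by -1.39 (7.05e-10), Egr3 by -1.19 (7.81e-09) and Ier2 by -0.91 (8.08e-13), beside a list median of -0.61 and 0.00 over all genes. Of the 11, 4 had a smaller 0.5 h response than in WT cells, 7 were not called and the list median was -0.28. The difference of the 0.5 h responses was -3.48 for Egr1 (3.22e-18) and -1.17 for Fos (6.25e-07), where 0.0589% of all genes were called.

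MRTF-linked targets were higher in 5, 3, 4 and 5 of 11 at the 4 times and lower in 1 at each. At 2 h Vcl, which encodes vinculin, differed by +0.65, Cnn2 by +0.47, Acta2 by +0.35 and Actb by +0.30, with a list median of 0.13 against 0.02 over all genes. Among 6 tested cofactors 3 were higher and 1 lower without LPS. After LPS the higher ones were 2, 2 and 1 at 0.5, 1 and 2 h, with 0 lower. Without LPS Mkl2, which encodes an MRTF, was higher by 0.34 (adjusted p = 0.000127), and Hdac1, which encodes a histone deacetylase, was at -0.10. Among 7 kinases upstream of TCFs, 2 were higher and 4 lower without LPS, of which Map2k2, which encodes MKK2, was at -0.35 (1.43e-08). At 2 h Mapk14, which encodes the kinase p38α, was at -0.45 (2.06e-18). These shares stood beside 51.8%, 44.4%, 53.4% and 50.8% of all genes called.

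Other ETS factors were examined because they bind related motifs. Of the 14 tested, 7, 6, 7 and 5 were higher and 3, 2, 3 and 6 lower in Elk1-/-Elk4-/- cells without LPS and at 0.5, 1 and 2 h, beside the 51.8%, 44.4%, 53.4% and 50.8% of all genes called in either direction. Without LPS Spib was higher by 1.22 (adjusted p = 4.33e-16), Etv1 by 0.47 (6.69e-05) and Fli1 by 0.29 (2.74e-06), and Spi1, which encodes the macrophage factor PU.1, was at -0.30 (1.07e-07). At 2 h Erf, an ETS repressor that ERK1/2 phosphorylates, was at -0.70 (1.10e-12), Spib at +0.67, Etv1 at +0.57 and Elf1 at +0.46 (7.91e-12). In WT cells after 2 h of LPS 6 of the 14 were higher and 7 lower, beside 71.5% of all genes called. Of these, Etv3 was higher by 1.85 (6.00e-29), Etv6 by 1.47 (3.05e-26) and Spi1 by 0.93 (2.52e-26), and Fli1 was at -0.97 (8.21e-25).

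**Figure D4:**
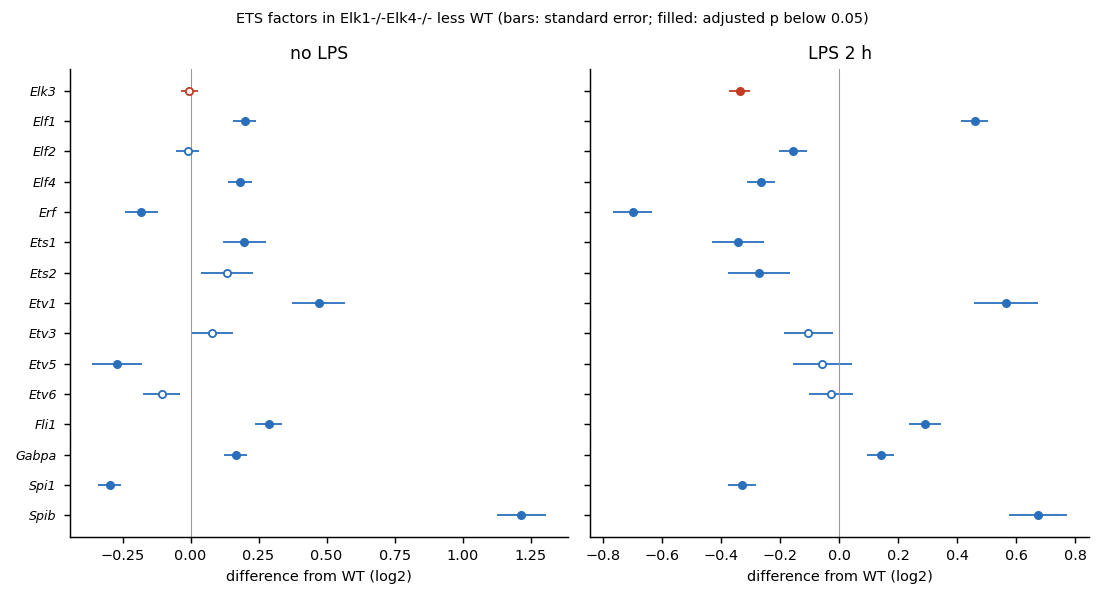
Difference between Elk1-/-Elk4-/- and WT cells (horizontal axis, log2, bars show the standard error) for ETS-family genes (vertical axis), with filled points where the adjusted p was below 0.05. Elk3 lies at 0 without LPS and at -0.34 at 2 h, and Spib lies at +1.22 and +0.67, while Elk1 and Elk4 are not shown.

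Nfkb1[SS/AA] cells, in which TPL-2 is held by p105, had lower Elk3 than WT cells at 1 h, while Srf was not called at that time. Elk3 lay between 10.44 and 10.58 (median 10.49) at 1 h, all below the lowest WT library, with a difference of -0.20 (adjusted p = 6.29e-09), and the differences without LPS and at 0.5 h were both -0.05. Srf at 1 h lay between 10.37 and 10.61 (median 10.52), overlapping WT, with a difference of -0.04 (0.534). Without LPS it was lower by -0.13 (0.0234), a call lost without Nfkb1[SS/AA] replicate 4 or 6 or WT replicate 7 or 9 (-0.14 to -0.11). Elk1 at 1 h differed by -0.15 (0.00166). The shares of all genes called at 0, 0.5 and 1 h were 32.0%, 32.3% and 42.5%.

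Within Nfkb1[SS/AA] cells, LPS at 1 h raised Elk3 by 0.16 (adjusted p = 1.71e-06; 0.077 and 0.0254 under quantile normalization) and Srf by 0.44 (3.35e-15), and Srf was also higher at 0.5 h by 0.18 (0.00174). In these cells 14.6% of genes were called at 0.5 h and 44.4% at 1 h. Elk1 was higher at 1 h by 0.16 (0.00105), but with the replicate number as a block, which paired these libraries, the adjusted p was 0.0535, and at 0.5 h (+0.10, 0.0811) it was 0.0420. Elk4 at 1 h was at 7.87, 6.88, 7.80, 7.86, 7.75 and 7.86, of which replicate 2 stood far below the rest, and differed from WT by -0.37 (9.23e-05) and without replicate 2 by -0.21 (0.00670). Its response less that of WT was -0.45 (0.00531; 6.07% of genes called) and without replicate 2 it was -0.28 (0.0786). In that library the deviation of all genes from the rest of the group was related to transcript length (Spearman -0.675 across genes, which are not independent), and Elk4, with 4433 bases, is longer than 72.1% of the genes. The part of length in the Elk4 value was not tested.

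Elk1 and Srf were higher after 1 h of LPS in the presence of PD0325901, and Elk3 was higher on the values as deposited. LPS at 0.5 and 1 h in the presence of PD0325901 was compared with PD0325901 alone for 40 and 70 min, within 1 experiment, with 14.9% and 43.6% of genes called. Elk1 was higher by 0.17 (adjusted p = 0.0130) and 0.33 (5.15e-08), the former not called without replicate 2 (0.16 to 0.18). Elk3 was higher at 1 h by 0.11 (0.00683), from 10.34, 10.35 and 10.35 to between 10.43 and 10.51, with no overlap, but under quantile normalization the difference was 0.011 (0.836). Srf was higher at 1 h by 0.30 (2.70e-06), while the 0.5 h difference was -0.03 (0.751), and Elk4 differed by -0.01 at 0.5 h and -0.00 at 1 h (0.994).

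Against WT cells with LPS, PD0325901-treated cells had lower Srf at 0.5 h (10.02 to 10.13, median 10.07; -0.23, adjusted p = 2.54e-05) and at 1 h (10.22 to 10.42, median 10.30; -0.24, 9.26e-06), with no overlap at either time. Elk3 (-0.25, 2.25e-11) and Elk4 (-0.32, 0.00125) were lower at 1 h, also with no overlap, and Elk1 differed by -0.03 and -0.06. Elk3 at 0.5 h was at -0.09 (0.0173), a call lost without PD0325901 replicate 1 or WT replicate 9 (-0.10 to -0.07). Here 29.4% and 35.7% of genes were called. Between the solvent group of the same experiment and unstimulated WT cells 23.6% of genes were called. Elk3 differed by -0.11 (0.0136), a call lost without DMSO replicate 1 or 3 (-0.13 to -0.10), and Srf at -0.12 was not called (0.0848). Between 10 min of PD0325901 and DMSO limma called no gene (0.00%), with 245 genes and 0 members at an unadjusted p below 0.05, and Elk4 differed by -0.18 (1.00). Between 70 and 10 min of PD0325901, 6.09% of genes and no member were called. All 11 tested immediate early genes were lower than in WT at 0.5 h, beside 15.0% of all genes, with Egr1 at -4.48 (4.26e-48).

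RSKi47-treated cells differed from WT in all 4 members, with Elk4 in the other direction from the rest. Elk4 was at 8.53, 8.40, 8.48 and 8.41 without LPS, all above the highest WT library at 7.80, and at 8.55, 8.55 and 8.44 at 0.5 h. The differences were +0.73 ± 0.09 (adjusted p = 4.93e-11), +0.78 ± 0.10 (2.39e-10), +0.20 at 1 h (0.0610) and +0.24 at 2 h (0.0401). The 2 h call was lost without RSKi47 replicate 1, 2 or 3 or WT replicate 4, 6 or 7 (0.19 to 0.34) and under quantile normalization (0.20, 0.0762). Elk3 differed by -0.12 (0.00107), -0.13 (0.00237), -0.32 (2.11e-14) and -0.30 (8.04e-12) at 0, 0.5, 1 and 2 h, and Srf by -0.19 (0.00111), -0.20 (0.00191), -0.30 (2.68e-07) and -0.17 (0.00491). Elk1 differed by -0.08 (0.124), -0.17 (0.00433), -0.27 (1.16e-06) and -0.14 (0.0158) at 0, 0.5, 1 and 2 h. Its 0.5 h call was lost without RSKi47 replicate 2 and its 2 h call without RSKi47 replicate 4. In these comparisons 53.0%, 48.2%, 52.8% and 52.1% of all genes were called.

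The RSKi47 differences rose with transcript length across all genes, with Spearman correlations of 0.456, 0.435, 0.347 and 0.337 over 11195 genes at the 4 times. The 2297 genes of a length like that of Elk4 had median differences of 0.07, 0.06, 0.06 and 0.08. The part of length in the Elk4 difference was not tested. Within RSKi47 cells Elk4 was not called after LPS (+0.06, -0.21 and -0.04 at 0.5, 1 and 2 h, the second with an adjusted p of 0.102). Its response less that of WT was -0.53 at 1 h (0.00306; 5.54% of genes called) and -0.50 at 2 h (0.00378; 21.0%), the latter not called without WT replicate 5 (-0.55 to -0.36).

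Elk3 in RSKi47 cells was higher after LPS by 0.12 at 1 h (adjusted p = 0.00782), a call lost without replicate 4 (0.07 to 0.14), and by 0.17 at 2 h (1.44e-05). Under quantile normalization these were 0.043 (0.395) and 0.029 (0.505), Srf at 1 h was 0.16 (0.0183) and Srf at 2 h was 0.017 (0.813). On the values as deposited Srf was higher by 0.24 at 1 h (0.000254) and 0.14 at 2 h (0.0238), the latter not called without replicate 1, 2 or 3 (0.12 to 0.15). Elk1 was at 8.93, 8.94, 8.95 and 8.82 at 2 h, lower than without LPS by -0.15 (0.00970), a call lost without replicate 1 (-0.17 to -0.12). In these cells 5.10%, 29.0% and 62.2% of genes were called at 0.5, 1 and 2 h. Of the 11 immediate early genes 3, 2 and 4 were lower and 1, 1 and 2 higher than in WT at 0.5, 1 and 2 h, beside 48.2%, 52.8% and 52.1% of all genes called. In Nfkb1[SS/AA] cells 10 and 10 were lower and 1 and 0 higher at 0.5 and 1 h (32.3% and 42.5% of all genes called), and in PD0325901 cells 11 and 10 were lower and 0 higher (29.4% and 35.7%).

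**Figure D5:**
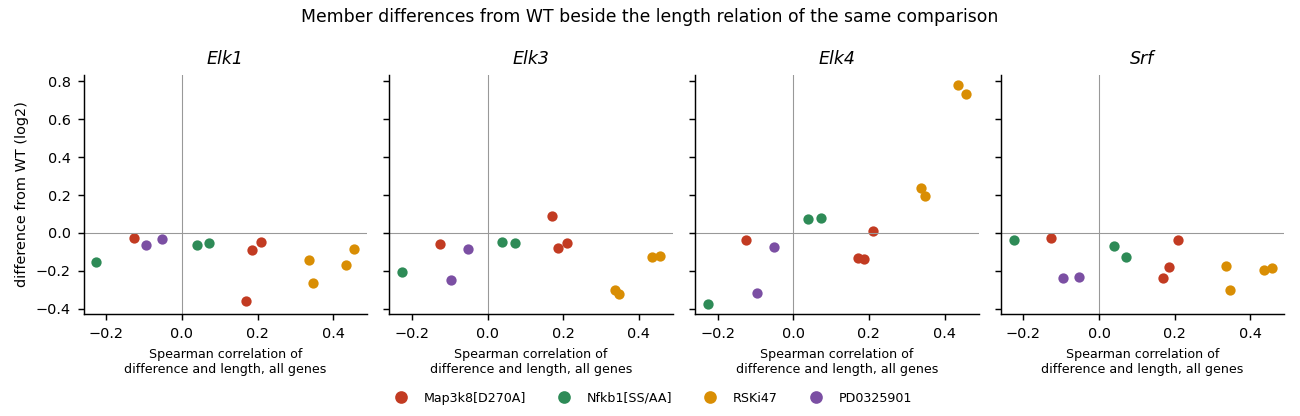
Difference of each member from WT (vertical axis, log2) against the Spearman correlation, across all genes, of the difference with transcript length in the same comparison (horizontal axis, no unit), with 1 point per comparison. Elk4 in RSKi47 cells is highest (+0.73 and +0.78) where the correlation is highest (0.456 and 0.435), while Elk3, of similar length (4212 against 4433 bases), is below 0 there (-0.12 and -0.13).

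Ordered over the 25 groups, Srf was highest in WT cells at 1 h (mean 10.54 ± 0.05, SD) and lowest in unstimulated Elk1-/-Elk4-/- cells (10.00), with no gap between neighbouring groups larger than the sum of their SDs. Elk3 ran from 10.83 in Map3k8[D270A] cells at 2 h to 10.27 in RSKi47 cells without LPS, with 1 such gap of 24, between Map3k8[D270A] cells at 1 h and the next lower group. Elk1 was highest in WT cells at 1 h (9.40) and, outside the deleted cells, lowest in Map3k8[D270A] cells at 2 h (8.69), and Elk4 was highest in RSKi47 cells at 0.5 h (8.52). Elk1 had 2 such gaps and Elk4 had 1, and in both genes 1 of them set off the deleted cells.

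Over the means of the 21 groups with intact Elk1 and Elk4, which share experiments and controls, Srf went most with Araf (Pearson r = 0.898), Fosl1 (0.884) and 1810032O08Rik (0.884). Elk3 went most with Icam4 (0.956), Oaf (0.947) and Gm11974 (0.936). Elk1 went most with Adrbk1 (0.931), Pdgfb (0.901) and 4930402H24Rik (0.89), and Elk4 with Plec (0.958), Srcap (0.956) and Diaph2 (0.945). Among the members, Srf went with Elk1 (0.673) and Elk3 (0.531), Elk4 went with Elk3 at 0.171, Elk1 with Elk3 at -0.085, Srf with Elk4 at -0.097 and Elk1 with Elk4 at -0.325.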

How the data were processed

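RNA was sequenced by the authors from 119 libraries with stranded single-end reads. Per the labels and the study's methods, reads were aligned to mm10 with STAR, quantified with RSEM and normalised with DESeq2 1.10.1. The submitters' processing notes name RSEM 1.2.29 and STAR 2.5.1b, while the study's methods name other versions of both. The deposited table holds normalised values on a log2 scale, with no counts. How they were transformed is not stated in these sources. One value (57.73, Fosb) was treated as missing.

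Moderated tests used limma 3.58.1 (R 4.3.3), with Benjamini-Hochberg adjustment over the genes that reached a linear 10 in 4 libraries (62 libraries of WT, Map3k8[D270A] and Elk1-/-Elk4-/- cells, 29 comparisons) or in 3 (all 119 libraries, 26 comparisons). A call is an adjusted p below 0.05, two-sided. Intervals are 95%. The test was checked on simulated data. Responses were compared by interaction contrasts.

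Named were the 4 members, for each the 3 genes with the most similar group means, and from each list up to 4 called genes by size. Members and lists were chosen with earlier results of these data known. Transcript lengths are those of the longest coding transcript in GENCODE vM21. Same-numbered libraries deviated together in all 30 pairs of WT (correlations 0.164 to 0.79) and all 18 of Nfkb1[SS/AA] libraries (0.145 to 0.672), so these are treated as paired. Same-numbered libraries also deviated together in Map3k8[D270A] (0.072 to 0.759, 34 of 36 pairs above 0.1) and RSKi47 cells (0.071 to 0.697, 20 of 21). In Elk1-/-Elk4-/- cells 20 of 24 pairs were above 0.1, and in PD0325901 cells 14 of 33. As not every pair was above 0.1, the LPS tests within these arms are given without a block. Numbers shared with WT are not treated as paired either. Alternatives changed the filter, scaling, libraries, spread estimate, block, control libraries and threshold.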

Additional observations from a re-analysis of the deposited data

Results flagged for a closer look

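One library stood apart from the rest of its group in 8 of 80 pairs of a member and a group (10.0%), by the ratio of its gap to the group's range, where chance gives about 1 in 20. For Elk1 these were Elk1-/-Elk4-/- replicate 1 at 1 h (6.421, the others 6.277 to 6.296) and RSKi47 replicate 4 at 2 h (8.819, the others 8.934 to 8.946). For Elk3 it was PD0325901 with LPS, replicate 5 at 1 h (10.508, the others 10.426 to 10.455). For Elk4 they were WT replicate 5 at 2 h (8.486, the others 8.067 to 8.086), Elk1-/-Elk4-/- replicate 2 at 0.5 h (5.691, the others 5.514 to 5.541), RSKi47 replicate 4 at 1 h (7.983, the others 8.302 to 8.348) and Nfkb1[SS/AA] replicate 2 at 1 h (6.88, the others 7.754 to 7.871). For Srf it was Elk1-/-Elk4-/- replicate 2 at 1 h (10.395, the others 10.346 to 10.352).

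The LPS response of a member differed from that in WT cells in 14 of 52 tests of the difference itself, all against the same WT libraries, when 0.0251% to 21.0% of all genes were called in these comparisons (15.5% to 21.0% at 2 h). In Map3k8[D270A] cells at 2 h these were Elk1 (-0.3116), Elk3 (0.1424) and Srf (-0.1988). In Elk1-/-Elk4-/- cells they were Elk3 at 1 h (-0.2088) and 2 h (-0.3324), and the 2 deleted genes themselves, Elk1 at 1 h (-0.2978) and Elk4 at 2 h (-0.4591), whose low values were not read as residual transcript. The Elk1 value was not called without Elk1-/-Elk4-/- replicate 2 or 3 (-0.38 to -0.21) or under quantile normalization (-0.20). In Nfkb1[SS/AA] cells at 1 h they were Elk3 (-0.1534) and Elk4 (-0.4503). In RSKi47 cells they were Elk3 at 1 h (-0.1981) and 2 h (-0.1792), and Elk4 at 1 h (-0.5346) and 2 h (-0.4961). In PD0325901 cells at 1 h it was Elk3 (-0.2015). The Elk3 call in Nfkb1[SS/AA] cells was lost without WT replicate 4 or 6 (-0.17 to -0.13) and that in RSKi47 cells at 2 h without RSKi47 replicate 1 (-0.22 to -0.14) or under quantile normalization (-0.10).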

How the results depend on the processing

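Of the 41 calls against WT and 35 calls of an LPS response over the 4 members, 8 and 0 remained when a 2-fold difference was also required. With WT replicates 7 to 9 as control, the lost calls included, at 2 h where this leaves 1 WT library, Elk1 in Map3k8[D270A] cells (-0.26) and Srf in WT cells (+0.15, 0.0501), and the Elk3 response at 1 h in Elk1-/-Elk4-/- cells less WT (-0.15) and Elk4 in WT cells at 1 h (+0.18, adjusted p = 0.0879). Srf in Elk1-/-Elk4-/- against WT cells at 0.5 h was lost with centred libraries (-0.12, 0.0520), without the filter (-0.12, 0.0547), with the 2 groups alone (-0.12, 0.105) and with WT replicates 4 to 6 (-0.0372, 0.467), and ran from -0.14 to -0.0887 over the fits without 1 replicate. Srf in WT cells at 2 h ran from 0.11 to 0.15 over such fits and was -0.0379 under quantile normalization, which also reversed Elk3 in Elk1-/-Elk4-/- cells after LPS at 1 h (-0.0062) and 2 h (-0.17). Elk1 in WT cells at 2 h was called with the groups alone (-0.0896, 0.0413) and with a random replicate block (-0.10, 0.0316). A block on the numbers shared with WT, which were not taken to pair libraries, lost among others Srf in Map3k8[D270A] at 1 h (-0.18, 0.0805) and 2 h (-0.12, 0.242), Srf in PD0325901 at 1 h (-0.18, 0.0874) and Elk3 in Nfkb1[SS/AA] cells at 1 h (-0.23, 0.0599). With the block within an arm 37 LPS responses were called as fixed and 43 as random; among paired arms it changed no call other than those of Elk1 and Srf given above. Among the other member results, many of which are given above, alternatives other than leaving out a replicate lost a call 61 times and gained one 28 times, and leaving out a replicate did so 50 and 9 times and turned no called value. The cause of these changes was not tested. Quantile normalization assumes equal distributions and moved the median of all genes by less than 0.1. Counting depth is unknown, and values from 5 to 7 vary less than log2 counts would, which limits Elk1 and Elk4 in deleted cells.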
